A study of Mus musculus with 18 samples.

Results

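The skeletal muscle programme was followed through 40 genes of the mouse count table, out of 55486 genes in all. The members are the rows whose gene symbol belongs to a list of myogenic regulators, genes of myoblast fusion, subunits of the neuromuscular junction and parts of the sarcomere and its calcium machinery. The list was drawn up with results of these libraries known, in particular the higher values of such genes in CD26- cells after tumour medium, so the values of that comparison describe the members and carry no support of their own.

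The libraries hold polyadenylated RNA from normal fibroblasts (NFs) of the FVB/n mammary gland, sorted as negative for EpCAM, CD49f, CD45 and CD31 and split by CD26, a surface peptidase encoded by Dpp4. The cells came from pooled adult female mice, were cultured on collagen at early passage, and were kept for 7 days in control medium or in medium conditioned by tumour cells (CM). The CM was taken from 6 WEPtn lines, that is, lines from tumours of a mouse model of invasive lobular carcinoma in which Cre is driven by the milk protein promoter Wap and E-cadherin is among the deleted genes. The 18 libraries are CD26- NFs in control medium (libraries 1 to 3), CD26- NFs in CM (4 to 9), CD26+ NFs in control medium (10 to 12) and CD26+ NFs in CM (13 to 18), and within each cell type the 6 CM libraries stand for the 6 lines, 1 each. The labels give FVB/n for the NFs of all 4 groups. The study's methods add that NF donors lacked WapCre and carried floxed alleles, Cdh1F/F among them, or were mTmG reporter mice, without saying which library came from which. The labels do not say whether libraries of a group came from separate sorts, so p-values measure the spread between these cultures and between the lines.

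Skeletal muscle is built from myoblasts that express the helix-loop-helix factors MyoD and myogenin, leave the cell cycle, fuse into multinucleated fibres and assemble sarcomeres of thick (myosin) and thin (actin, troponin) filaments. Embryonic and slow isoforms of many sarcomere proteins appear early and are replaced in adult fibres. The factors MyoD and myogenin bind the E-box, CANNTG, in the regulatory DNA of muscle genes, and resting muscle stem cells are marked by Pax7. Most of these genes are silent in fibroblasts.

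Total counts per library were 9725723 to 14099859 in the CD26- controls, 11240481 to 13331023 in CD26- CM, 12616217 to 14585349 in the CD26+ controls and 11594468 to 13890291 in CD26+ CM. All 12 fibroblast markers (Col1a1, Pdgfra and others) exceeded 3 counts in the median library of every group. The 12 epithelial markers were counted too, although the cells had been sorted without EpCAM: they summed to 4422 to 4866 CPM (counts scaled to library size) in the CD26- controls, 2845 to 4592 in CD26- CM, 729 to 1308 in the CD26+ controls and 675 to 1610 in CD26+ CM. The satellite cell marker Pax7 had at most 5 counts in any library. In these bulk libraries a gene carried by a few cells and a gene at a low level in every cell cannot be told apart, and fewer cells of a type cannot be told apart from less RNA per cell.

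A member is described as above the floor in a group where its median raw count over the group's libraries is over 3, a floor that corresponds to 0.203 to 0.290 CPM. By that measure 19 of the 40 members were above the floor in CD26- controls, 34 in CD26- CM, 16 in CD26+ controls and 15 in CD26+ CM. In every library of the group, 14, 28, 10 and 9 members exceeded 3 counts, in the same order. No count at all was found for 6 members in the CD26- controls, 1 in CD26- CM, 13 in the CD26+ controls and 12 in CD26+ CM. Just inside the floor in CD26- CM were Mymx and Unc45b (medians of 3.5 counts), and just outside it were Sgca (2) and Pax7 (1.5). The 6 members Pax7, Myf5, Myf6, Tnnc2, Sgca and Ckm stayed at or under the floor in all 4 groups. The matrix of counts by library shows the CD26- CM block as the part of the table where most members carry counts.

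**Figure D1:**
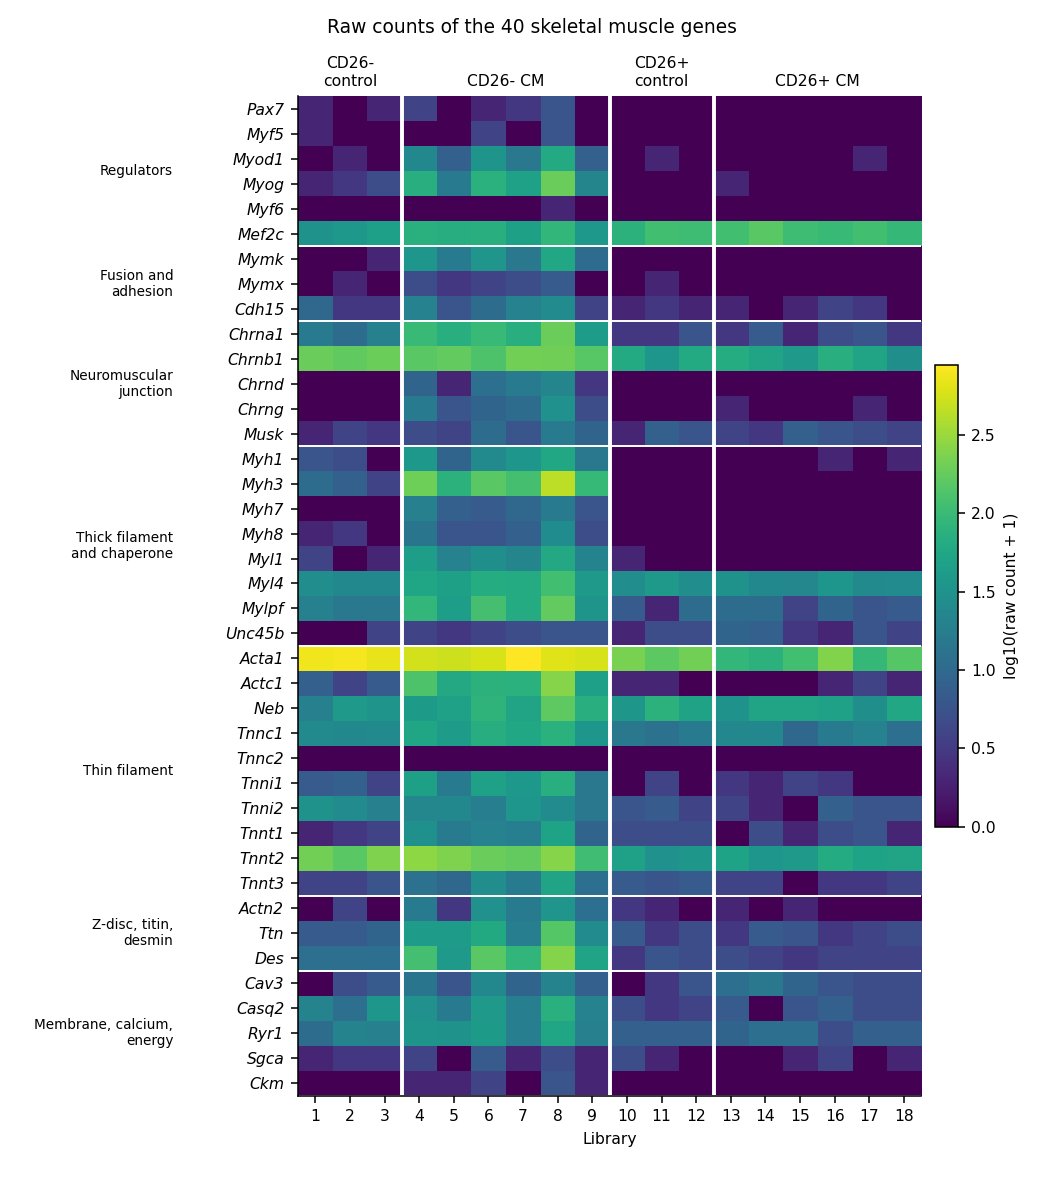
Raw counts of the 40 members (rows, grouped by role) in the 18 libraries (columns, grouped by cell type and medium), coloured by log10 of the count plus 1. Most rows are brightest in libraries 4 to 9 (CD26- CM) and brightest of all in library 8, whereas Acta1, Tnnt2, Chrnb1 and Mef2c carry counts throughout and Tnnc2 is at 0 in all 18.

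The 250 bases upstream of the start are shown for 5 members that were higher in CD26- CM, to mark the E-boxes in them. They are the regulator Myog, the acetylcholine receptor subunits Chrna1 and Chrng, the intermediate filament gene Des and the fast myosin light chain gene Mylpf, chosen after their values were seen. The sequences are from RefSeq on GRCm38.p6, run 5′ to 3′ on the gene's strand and end at the base before the start, and capitals mark each CANNTG on either strand.
Myog (chr1:134289754-134290003, plus strand): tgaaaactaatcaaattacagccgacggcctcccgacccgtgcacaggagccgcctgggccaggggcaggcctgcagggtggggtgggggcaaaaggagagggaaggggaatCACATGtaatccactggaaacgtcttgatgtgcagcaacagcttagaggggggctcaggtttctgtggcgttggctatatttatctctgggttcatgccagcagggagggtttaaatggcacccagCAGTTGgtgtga
Chrna1 (chr2:73580339-73580588, minus strand): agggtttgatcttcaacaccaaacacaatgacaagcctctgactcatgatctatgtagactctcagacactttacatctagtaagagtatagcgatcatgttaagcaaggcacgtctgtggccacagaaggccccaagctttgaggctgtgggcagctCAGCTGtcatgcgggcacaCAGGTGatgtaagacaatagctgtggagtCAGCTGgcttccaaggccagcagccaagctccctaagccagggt
Chrng (chr1:87205561-87205810, plus strand): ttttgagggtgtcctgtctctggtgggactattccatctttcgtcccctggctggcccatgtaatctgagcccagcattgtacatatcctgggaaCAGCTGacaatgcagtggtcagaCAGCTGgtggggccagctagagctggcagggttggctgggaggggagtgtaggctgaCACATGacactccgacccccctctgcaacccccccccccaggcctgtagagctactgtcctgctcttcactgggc
Des (chr1:75360042-75360291, plus strand): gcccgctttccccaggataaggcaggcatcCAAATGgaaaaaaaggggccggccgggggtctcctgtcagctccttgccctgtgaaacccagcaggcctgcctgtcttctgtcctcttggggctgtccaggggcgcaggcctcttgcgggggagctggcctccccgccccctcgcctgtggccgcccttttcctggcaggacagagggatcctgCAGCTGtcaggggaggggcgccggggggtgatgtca
Mylpf (chr7:127211358-127211607, plus strand): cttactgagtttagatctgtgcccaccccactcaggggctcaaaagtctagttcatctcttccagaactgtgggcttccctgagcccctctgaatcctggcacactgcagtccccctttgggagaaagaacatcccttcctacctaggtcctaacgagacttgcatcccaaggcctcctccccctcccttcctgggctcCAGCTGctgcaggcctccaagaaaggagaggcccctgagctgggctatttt
Of the 40 members 32 had a window, some with more than 1 start, which gave 37 windows. The form CAGCTG, a subset of CANNTG, occurred in 12 of the 37 windows (11 members), beside 13.0% of all 32851 windows of that length in the same table. CANNTG occurred in 30 of the 37 (26 members), beside 66.2% of all windows. Chrna1 and Chrng each held 2 copies of CAGCTG, at 39 and 87 bases and at 127 and 150 bases from the start (counted to the copy's nearest base, with 1 for the base next to the start). Des held a copy at 31 bases and Mylpf at 46 bases, and Myog held CANNTG at 7 and 133 bases but no CAGCTG. A match says only that the letters are there. In GENCODE M21 the last 15 bases of the Myog window and 1 base of the Chrng window lie in an annotated exon, the Chrng and Mylpf windows lie inside the span of their gene, and the RefSeq start of Des lies in no annotated transcript.

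Among the regulators, Myog and Myod1 were counted almost only in CD26- CM. Myog (ENSMUSG00000026459, chr1:134289989-134292548, GRCm38) encodes myogenin, which drives terminal differentiation of myoblasts. Its raw counts were 1, 2 and 4 in the CD26- controls, 71, 16, 76, 47, 186 and 21 in CD26- CM (libraries 4 to 9), 0 in all 3 CD26+ controls, and 1 in library 13 with 0 in the other 5 CD26+ CM libraries. Every CD26- CM library exceeded every other library. The mean was 5.36 ± 4.82 CPM (SD, n = 6) in CD26- CM against 0.179 ± 0.0873 CPM (SD, n = 3) in the CD26- controls, a ratio of depth-scaled counts of 28.1 with a 95% counting interval of 13.5 to 70.4. That interval, like those below, covers counting error only.

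Myod1 (chr7:46376474-46379099) encodes MyoD, the determination factor that can turn fibroblasts into muscle. It had 0, 1 and 0 counts in the CD26- controls, 23, 7, 32, 14, 62 and 7 in CD26- CM, 0, 1 and 0 in the CD26+ controls, and 1 count in library 17 with 0 in the other CD26+ CM libraries. The groups did not overlap, and the ratio of CD26- CM to CD26- control was 68.5, with a counting interval of 12.1 to 2724 because the control value rests on 1 count. Myf5 and Myf6, the other myogenic factors of the family, did not follow. Myf5 had 1, 0 and 0 counts in the CD26- controls and 0, 0, 3, 0, 5 and 0 in CD26- CM, and Myf6 had 1 count in library 8 and 0 elsewhere. Pax7 had 1, 0 and 1 counts in the CD26- controls and 3, 0, 1, 2, 5 and 0 in CD26- CM. All 3 were at 0 in every CD26+ library, which allows up to 3 counts in each.

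Mef2c, a partner of the myogenic factors that is also expressed in many other cells, behaved in another way. It had 31, 36 and 45 counts in the CD26- controls, 36 to 89 (median 70) in CD26- CM, 78, 111 and 106 in the CD26+ controls and 90 to 155 (median 108.5) in CD26+ CM. In CPM the order of the groups was CD26+ CM (9.09 ± 1.46), CD26+ control (7.47 ± 1.02), CD26- CM (4.90 ± 1.42) and CD26- control (3.04 ± 0.0371), with SDs over 6, 3, 6 and 3 libraries. Both CD26+ groups lay above the CD26- group in the same medium without overlap, and the CD26+ groups overlapped each other.

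Of the 3 genes of fusion and adhesion, Mymk was counted almost only in CD26- CM. Mymk encodes myomaker, a membrane protein needed for myoblasts to fuse. It had 0, 0 and 1 counts in the CD26- controls, 34, 15, 33, 14, 57 and 10 in CD26- CM, and 0 in all 9 CD26+ libraries. Mymx, whose product myomixer completes fusion, had 0, 1 and 0 counts in the CD26- controls, 4, 2, 3, 4, 6 and 0 in CD26- CM, 0, 1 and 0 in the CD26+ controls and 0 in CD26+ CM, too few to be tested. Cdh15 (M-cadherin, an adhesion protein of myoblasts) had 9, 2 and 2 counts in the CD26- controls, 3 to 25 (median 14.5) in CD26- CM, 1, 2 and 1 in the CD26+ controls and 0 to 3 (median 1) in CD26+ CM. Its CD26- groups overlapped. The Mymk value in CD26- CM, 2.09 ± 1.38 CPM (SD, n = 6), was at least 8.49-fold above the CD26+ CM group taken at 3 counts per library.

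**Figure D2:**
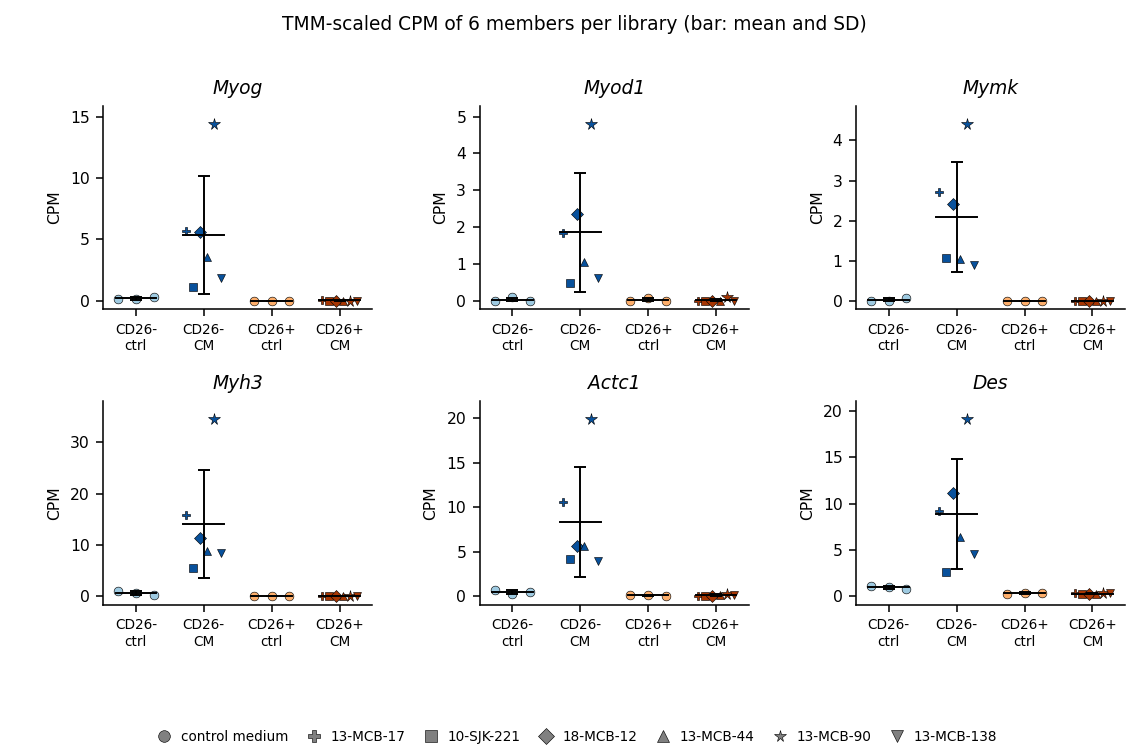
CPM of Myog, Myod1, Mymk, Myh3, Actc1 and Des in each library (points, with a marker per tumour line) by cell type and medium. Horizontal lines are means and bars are SDs over 3 control or 6 CM libraries. The 6 CD26- CM libraries sit above all others in each panel, with the 13-MCB-90 library (star) highest, and the CD26+ libraries sit at or near 0.

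At the neuromuscular junction, the receptor for acetylcholine is a pentamer whose fetal form carries the gamma subunit and whose adult form carries epsilon instead. Chrna1, the alpha subunit, had 15, 10 and 18 counts in the CD26- controls, 40 to 189 (median 82.5) in CD26- CM, 2, 2 and 5 in the CD26+ controls and 1 to 6 (median 3) in CD26+ CM. Chrng, the gamma subunit, had 0 counts in all 3 CD26- controls, 15, 5, 8, 10, 30 and 4 in CD26- CM, 0 in the CD26+ controls and 1 count in each of libraries 13 and 17. Chrnd, the delta subunit, had 0 in the controls of both cell types and in CD26+ CM, and 8, 1, 11, 15, 21 and 2 in CD26- CM. Against controls taken at 3 counts per library, CD26- CM was at least 3.71-fold higher for Chrng and at least 2.97-fold higher for Chrnd. The epsilon subunit gene Chrne, no member and named after its values were seen, had 0 counts in all 6 CD26- CM libraries and 0 to 1 in the CD26- controls.

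Chrnb1, the beta subunit, was instead counted in every library, with 184, 166 and 193 counts in the CD26- controls, 130 to 206 (median 163) in CD26- CM, 62, 34 and 62 in the CD26+ controls and 28 to 69 (median 51.5) in CD26+ CM. Its CD26- values lay above its CD26+ values in both media, and its control and CM values overlapped within each cell type. Musk, the kinase that clusters the receptor, ranged from 1 to 15 counts over the 18 libraries and was not tested.

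In the thick filament, Myh3 was counted mainly in CD26- CM. Myh3 (chr11:67078300-67102291), the embryonic myosin heavy chain, had 10, 7 and 3 counts in the CD26- controls, 197, 78, 155, 118, 446 and 94 in CD26- CM, and 0 in all 9 CD26+ libraries. That is 14.1 ± 10.6 CPM (SD, n = 6) in CD26- CM against 0.590 ± 0.383 CPM (SD, n = 3) in the CD26- controls. Against CD26+ CM taken at 3 counts per library the CD26- CM value was at least 57.1-fold higher.

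The other heavy chains were lower. Myh1, an adult fast chain, had 5, 4 and 0 counts in the CD26- controls, 8 to 56 (median 29) in CD26- CM, 0 in the CD26+ controls and 0 or 1 in CD26+ CM. Myh8, the perinatal chain, had 1, 2 and 0 counts in the CD26- controls and 4 to 26 (median 6) in CD26- CM, and the slow chain Myh7 had 0 in the CD26- controls and 5 to 18 (median 8) in CD26- CM. Neither had a count in CD26+ NFs, and neither passed the filter on low counts. On the scale of mean CPM per kilobase of annotated exon, which allows genes to be compared, the order in CD26- CM was Myh3 (2.32 ± 1.76), Myh1 (0.350 ± 0.211), Myh7 (0.0900 ± 0.0495) and Myh8 (0.0659 ± 0.0564), with SDs over 6 libraries. Myh7 and Myh8 do not differ beyond their spread. Reads shared between these near-identical genes could have been split or dropped when they were counted, so the levels of single heavy chains are uncertain. Of the exonic bases of Myh1, 8.1% also overlap the antisense gene Myhas. Those of Myh7 overlap the antisense genes Gm31251 (6.1%), Mhrt (5.6%) and Gm29015 (1.6%).

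Of the light chains, Myl1 and Mylpf belong to fast fibres and Myl4 to embryonic and atrial muscle. Myl1 had 3, 0 and 1 counts in the CD26- controls, 19 to 59 (median 24.5) in CD26- CM, 1, 0 and 0 in the CD26+ controls and 0 in CD26+ CM. Mylpf had 18, 14 and 14 counts in the CD26- controls, 32 to 173 (median 76) in CD26- CM, 6, 1 and 10 in the CD26+ controls and 3 to 10 (median 7) in CD26+ CM. Myl4 had 27, 23 and 23 counts, 37 to 113 (median 59), 27, 38 and 27, and 22 to 34 (median 24.5) in the same order of groups. Unc45b, a myosin chaperone, had 0 to 8 counts over all libraries.

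In the thin filament the alpha actins went separate ways. Acta1, the actin of adult skeletal muscle, was the member with the most counts, with 761, 796 and 699 in the CD26- controls, 526 to 880 (median 585.5) in CD26- CM, 223, 159 and 209 in the CD26+ controls and 77 to 244 (median 101) in CD26+ CM. Actc1, the cardiac actin that embryonic skeletal muscle also uses, had 7, 3 and 6 counts in the CD26- controls, 132, 59, 77, 75, 257 and 45 in CD26- CM, 1, 1 and 0 in the CD26+ controls and 0 to 3 (median 0.5) in CD26+ CM. Per kilobase, Acta1 stood at 41.0 ± 9.03 CPM in the CD26- controls (SD, n = 3) and 31.6 ± 6.55 in CD26- CM (SD, n = 6), and Actc1 at 0.276 ± 0.132 and 5.14 ± 3.82. The actins share much of their coding sequence with each other and with the smooth muscle actin Acta2, which had 19755 to 39865 counts in CD26- CM, so some Acta1 and Actc1 reads may belong to another actin gene. The part of that sharing in the values was not tested.

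The troponins, which make contraction depend on calcium, also split. Tnni1 and Tnnt1, the slow forms of troponin I and T, had 6, 7 and 3 and 1, 2 and 3 counts in the CD26- controls, and 14 to 70 (median 41) and 8 to 50 (median 18) in CD26- CM. In CD26+ NFs Tnni1 had 0, 3 and 0 counts in controls and 0 to 3 (median 1.5) in CM, and Tnnt1 had 4 in each control and 0 to 5 (median 2.5) in CM. Tnnt3, the fast troponin T, had 3, 3 and 5 counts in the CD26- controls, 9 to 51 (median 13.5) in CD26- CM, 6, 5 and 6 in the CD26+ controls and 0 to 3 (median 2.5) in CD26+ CM. All 6 CD26- CM libraries exceeded the CD26- controls for each of these genes.

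Tnnc1, the slow and cardiac troponin C, had 24, 23 and 24 counts in the CD26- controls, 34 to 75 (median 55.5) in CD26- CM, 14, 12 and 16 in the CD26+ controls and 9 to 23 (median 17.5) in CD26+ CM. Tnni2, the fast troponin I, had 31, 25 and 18 counts in the CD26- controls, 14 to 34 (median 22.5) in CD26- CM, 5, 6 and 3 in the CD26+ controls and 0 to 7 (median 4) in CD26+ CM. Tnnt2, the cardiac troponin T that embryonic skeletal muscle shares, had 205, 154 and 236 counts in the CD26- controls, 109 to 277 (median 211.5) in CD26- CM, 48, 30 and 35 in the CD26+ controls and 34 to 64 (median 50) in CD26+ CM. For Tnni2 and Tnnt2 the media overlapped and the cell types did not. The fast troponin C gene Tnnc2 had 0 counts in all 18 libraries. Of its exonic bases 74.0% overlap Ube2c on the opposite strand, and whether strand was used in counting is not given, so its 0 cannot be read as absence. Neb, the ruler of the thin filament, had 18 to 162 counts over all libraries, with the highest value in library 8.

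The 3 scaffold genes had higher medians in CD26- CM than in any other group. Des encodes desmin, the intermediate filament of muscle cells, which smooth muscle also has. It had 11 counts in each CD26- control, 115, 37, 153, 85, 247 and 51 in CD26- CM, 2, 5 and 4 in the CD26+ controls and 2 to 4 (median 3) in CD26+ CM. Actn2, the alpha-actinin of the Z-disc, had 0, 3 and 0 counts in the CD26- controls, 2 to 33 (median 15) in CD26- CM, 2, 1 and 0 in the CD26+ controls and 0 or 1 in CD26+ CM. Ttn, the giant spring protein titin, had 6, 6 and 8 counts, 17 to 146 (median 40.5), 6, 2 and 4, and 2 to 6 (median 3.5) in the same order. For Des and Ttn no CD26- CM library overlapped another group, and for Actn2 library 5, with 2 counts, lay below control library 2, with 3.

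Of the 5 genes of membrane, calcium handling and energy supply, Ryr1, Casq2 and Cav3 had enough counts to be tested, and none of the 3 passed for the CM effect in CD26- NFs with edgeR. Ryr1, the calcium release channel, had 10, 20 and 18 counts in the CD26- controls, 17 to 53 (median 31.5) in CD26- CM, 7 in each CD26+ control and 4 to 11 (median 7.5) in CD26+ CM. Casq2, a calcium-binding protein of the sarcoplasmic reticulum, had 20, 11 and 34 counts, 15 to 74 (median 24.5), 4, 2 and 3, and 0 to 7 (median 4.5) in the same order of groups. For both genes the CD26- media overlapped. Cav3, the muscle caveolin, had 0 to 23 counts over all libraries, Sgca (alpha-sarcoglycan) 0 to 6 and Ckm, the creatine kinase of mature muscle, 0 to 5.

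The comparisons were fitted over all 14273 genes with enough counts, with Benjamini-Hochberg adjusted p-values (FDR) of the edgeR quasi-likelihood test, and a gene passed at an FDR under 0.05. Of the members 29 were tested. The rest had too few counts, and 17 of the 29 entered only through CD26- CM libraries, so a member of that kind had to be higher there. For the CM effect in CD26- NFs, 19 of the 29 passed, all higher in CM, beside 7.88% of all tested genes that were higher, and 16 had a log2 fold change over 2, beside 0.764%. Of the 19, 14 were among the members tested only through CD26- CM libraries, and 5 of the 12 others passed (Mef2c, Chrna1, Myl4, Mylpf and Tnnc1). Of the 29 tested members, 19 had every CD26- CM library above every CD26- control, beside 10.0% of tested genes, and Myh7 and Myh8, which were not tested, did so too. As the list was chosen in view of this comparison, nothing is read from these counts. The median log2 fold change was 2.61 over the 29 tested members, or 2.38 with Chrng and Chrnd at the bounds given above, and 0.01 over all tested genes.

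Log2 fold changes with their standard errors were 5.83 ± 1.09 for Mymk, 5.66 ± 1.12 for Myod1, 4.75 ± 0.91 for Myog, 4.65 ± 0.81 for Myh3, 4.38 ± 0.73 for Myl1 and 4.22 ± 0.65 for Actc1. They were 3.91 ± 0.91 for Actn2, 3.37 ± 0.68 for Tnnt1, 3.28 ± 0.54 for Des, 3.11 ± 0.72 for Myh1, 2.93 ± 0.63 for Ttn and 2.71 ± 0.60 for Tnni1. Chrna1 (2.61 ± 0.42), Tnnt3 (2.39 ± 0.60), Mylpf (2.38 ± 0.49), Myl4 (1.27 ± 0.29), Tnnc1 (1.11 ± 0.26) and Mef2c (0.69 ± 0.22) completed the list with Chrng, whose fold is given above as a bound. The folds of 7 members moved by over 1.5 times when 1 library was left out. Without library 2 the controls of Myod1 and Actn2 are all at 0, as are those of Mymk without library 3, and the fitted values of 7.57, 7.12 and 7.72 then depend on the prior count and are no folds. Myl1 came to 5.71 without library 1, Myh1 to 3.78 without library 1 and 2.41 without library 3, Actn2 to 3.24 without library 3, and Myog to 4.16 and Ttn to 2.34 without library 8. Mef2c, at an FDR of 0.0436, lay just inside the threshold, and it missed it in 11 of 23 alternatives (highest FDR 0.139), among them those without library 1, 2, 3, 4, 5, 6, 8, 12 or 15. Without library 3 Myh1, Myl4, Tnnc1, Tnni1, Tnnt3 and Actn2 missed it too, and Tnnt3 also did so without library 1 or 2. Chrnd (FDR 0.0503) and Neb (0.0504) lay just outside the threshold. Acta1 (-0.37 ± 0.26), Tnni2 (-0.26 ± 0.36), Chrnb1 (-0.20 ± 0.20) and Tnnt2 (-0.04 ± 0.23) were among the 10 tested members that did not pass.

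**Figure D3:**
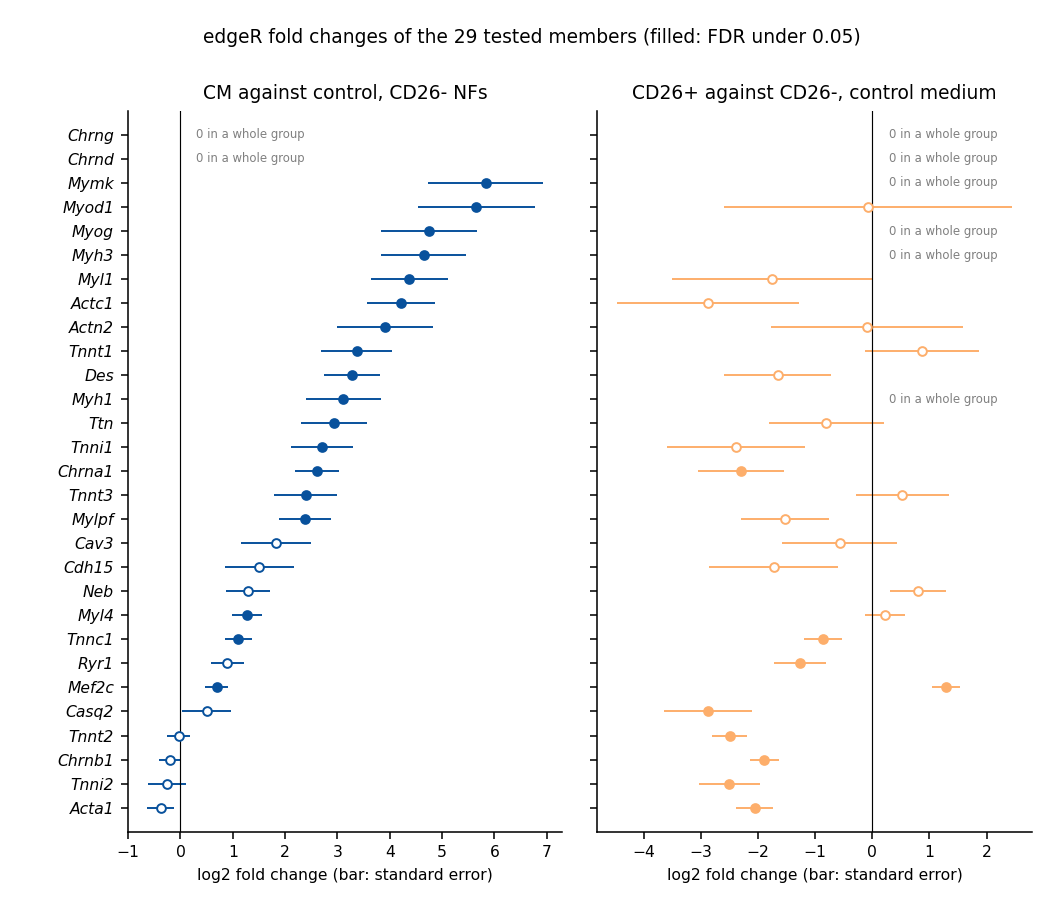
Log2 fold changes (points) with standard errors (bars) of the 29 tested members for CM against control in CD26- NFs (left) and for CD26+ against CD26- NFs in control medium (right), from the edgeR fit, with filled points at an FDR under 0.05. Members with 0 counts in a whole group carry a note in place of a point. In the left panel 18 points and Chrng passed, all to the right of 0, and in the right panel 8 passed to the left and Mef2c to the right.

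In CD26+ NFs the same media gave no such values. None of the 29 tested members passed for the CM effect in CD26+ NFs with edgeR, beside 28.6% of all tested genes that passed in either direction. The 2 shares are not alike, since 17 of the 29 passed the count filter only through CD26- CM libraries, and Mymk, Chrnd and Myh3 had no count in CD26+ NFs and could not pass. Fitted on the 2 CD26+ groups alone, 7 members had enough counts and none passed, nor did any at an unadjusted p under 0.05, beside 24.4% of all genes tested there. In the fit of all 4 groups 1 member had an unadjusted p under 0.05, Cav3, with a log2 fold change of 1.75 ± 0.77 (FDR 0.0951), and DESeq2 also gave none past the FDR, beside 27.0% of all genes with an adjusted p, and 1 at the unadjusted level. For Myog, Myod1, Chrng, Myh1 and Myl1 the CD26+ values rest on at most 2 counts per group, and Mymk, Chrnd, Myh3, Myh7 and Myh8 had none, so counts such as the 16 to 186 of Myog or the 78 to 446 of Myh3 in CD26- CM were not reached in CD26+ CM. Smaller changes in these genes were not detectable at this depth. Among the members with more counts in CD26+ NFs the log2 fold changes, none of which passed, were 0.28 ± 0.19 (Mef2c), 0.03 ± 0.25 (Chrnb1), -0.11 ± 0.30 (Myl4), -0.17 ± 0.40 (Neb), -0.54 ± 0.30 (Acta1) and 0.44 ± 0.30 (Tnnt2).

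Whether the CM effect differed between the cell types was tested as an interaction. With edgeR 2 of the 29 members passed, beside 7.53% of all tested genes in either direction. Both had the lower log2 fold change in CD26+ NFs: Tnnt1 (difference in log2 fold change -3.93 ± 1.15, FDR 0.0452) and Tnnt3 (-3.63 ± 1.00, FDR 0.0342). For Tnnt3 every CD26+ CM library (0.268 CPM or less) lay below every CD26+ control (0.370 CPM or more). Its CM effect in CD26+ NFs did not pass. The CM lines pair the CD26- and CD26+ libraries, and with the line as a replicate block 7 members passed, beside 17.6% of all tested genes, namely Des, Tnnt1, Tnnt3, Myl4, Ttn, Chrna1 and Actn2. For these the blocked differences were -3.40 (FDR 0.00390) for Des, -3.89 (0.00690) for Tnnt1, -3.55 (0.00647) for Tnnt3, -1.35 (0.0160) for Myl4, -2.86 (0.0166) for Ttn, -2.34 (0.0374) for Chrna1 and -5.09 (0.0468) for Actn2. DESeq2 gave 9 of the 25 members with an adjusted p, beside 10.8% of all such genes. The test uses the same CD26- CM libraries that the list was chosen on, and Tnnt1, Tnnt3, Des, Ttn and Actn2 passed the count filter only through them, so nothing is read from these counts. For Mymk, Myh3, Chrnd, Chrng and Myog the interaction could not be fitted usefully by edgeR, since the CD26+ counts are at or near 0. The count of 2 moved to between 0 and 4 when single libraries were left out, 0 without library 1, 2, 3, 10, 11, 12 or 16 and 4 without library 5.

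In control medium the cell types already differed in some members. Of the 29 tested, 8 were lower in CD26+ than in CD26- NFs and 1 was higher, beside 25.4% and 25.0% of all tested genes. The share of lower members is near that of all tested genes, so nothing is read from their count. All 9 are among the 12 members that passed the count filter through other libraries too, and none is among the 17 that passed it only through CD26- CM libraries and have few counts in controls. Fitted on the 2 control groups alone, 13 members were tested, of which 10 were lower and 2 higher, beside 30.0% and 29.8% of all genes tested there. The lower members were Tnni2 (log2 fold change -2.50 ± 0.53, FDR 7.41e-04), Tnnt2 (-2.49 ± 0.31, FDR 3.56e-06), Casq2 (-2.88 ± 0.78, FDR 0.00496), Chrna1 (-2.31 ± 0.75, FDR 0.0163), Acta1 (-2.06 ± 0.32, FDR 4.43e-05), Chrnb1 (-1.89 ± 0.26, FDR 1.07e-05), Ryr1 (-1.27 ± 0.45, FDR 0.0257) and Tnnc1 (-0.86 ± 0.34, FDR 0.0415). Mef2c was higher (1.29 ± 0.24, FDR 2.34e-04). Of these calls, Tnnc1 was lost in 6 of 23 alternatives (without library 1, 2, 10, 11 or 12, or with no count filter), Ryr1 in 4 (without library 2, 10, 11 or 12) and Chrna1 in 2 (without library 10 or 11), with highest FDRs of 0.137, 0.107 and 0.0625. Myog, with 7 counts in all over the CD26- controls and 0 over the CD26+ controls, did not pass with edgeR (FDR 0.256). DESeq2 gave 15 lower and 1 higher of the 33 members with an adjusted p, beside 21.5% and 19.8% of all such genes, and Myog, Myh3 and Actc1 were among the lower ones.

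Acta1, Tnnt2, Chrnb1 and Mef2c, set apart after their values were seen because they had 27 or more counts in every library, differed between cell types in control medium. Between media only Mef2c in CD26- NFs passed. Acta1 stood at 63.0 ± 13.9 CPM in the CD26- controls (SD, n = 3) and 15.1 ± 3.15 CPM in the CD26+ controls (SD, n = 3), and Tnnt2 at 16.3 ± 3.36 and 2.90 ± 0.872 CPM. Of the 11 tested epithelial markers 9 were lower in CD26+ NFs in the same comparison, and 11 of the 12 fibroblast markers were higher. Of the 12 tested smooth muscle and pericyte markers 4 were lower and 1 higher. Of the 4 tested cardiac markers 2 were lower and 1 higher. Of 4 endothelial markers 2 were lower, and of 4 adipocyte markers 3 were higher. The part of those cell types in the differences was not tested.

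**Figure D4:**
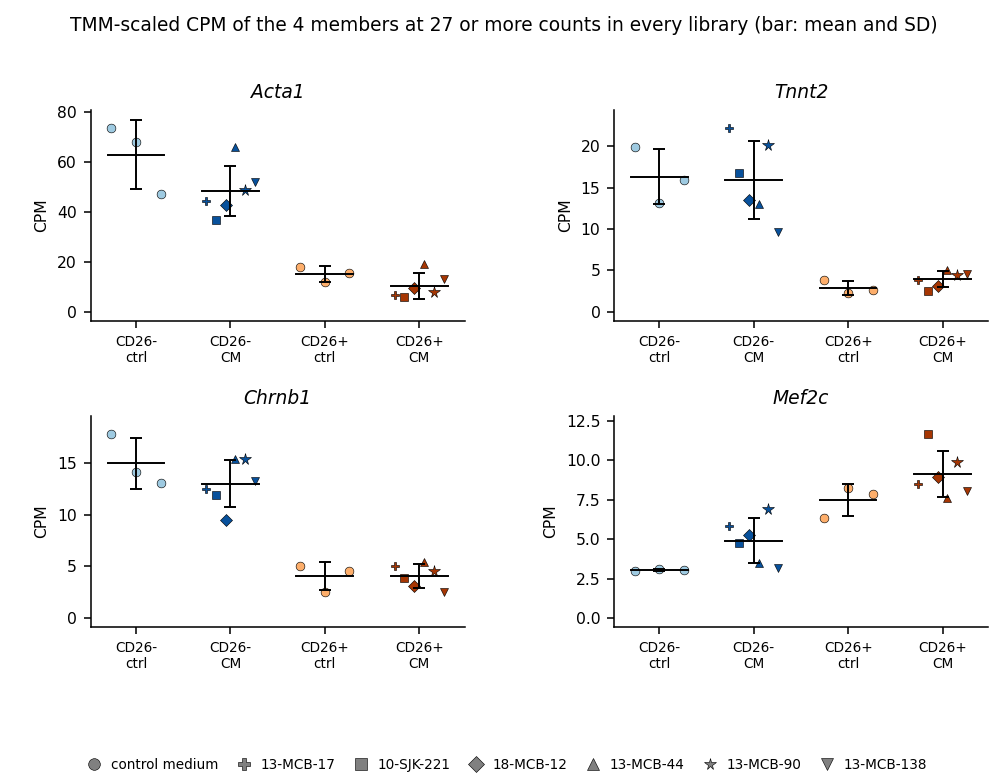
CPM of Acta1, Tnnt2, Chrnb1 and Mef2c, the 4 members with 27 or more counts in every library, by cell type and medium, with a marker per tumour line. Horizontal lines are means and bars are SDs over 3 control or 6 CM libraries. The CD26- libraries lie above the CD26+ libraries for Acta1, Tnnt2 and Chrnb1 and below them for Mef2c in the same medium, and the media overlap within a cell type except for Mef2c in CD26- NFs.

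In tumour CM 26 of the 29 tested members were lower in CD26+ than in CD26- NFs, beside 29.3% of all tested genes, and 22 had a log2 fold change under -2, beside 2.68%. Of the 26, 16 are among the 17 members that passed the count filter only through CD26- CM libraries, a selection that favours lower values in CD26+ NFs, and 10 are among the 12 others. Fitted on the 2 CM groups alone, 18 of 20 tested members were lower, beside 28.2%. This comparison shares its 6 CD26- libraries with the CM effect in CD26- NFs, so it is not a separate observation of the same genes and nothing is read from these counts. Des was lower by a log2 fold change of -5.12 ± 0.51 (FDR 1.68e-07), Actc1 by -6.74 ± 0.66 (FDR 1.54e-07) and Chrna1 by -4.67 ± 0.41 (FDR 4.74e-08). Mef2c was the exception with a higher value in CD26+ NFs (0.89 ± 0.16, FDR 1.16e-04), and Neb and Cav3 did not pass. Cdh15 (-3.32 ± 0.67, FDR 3.63e-04) and Chrnd passed here and in no other comparison between groups. Markers of other cell types also differed here. Of the 11 tested epithelial markers 9 were lower in CD26+ NFs, and 10 of the 12 fibroblast markers were higher. Of the 12 tested smooth muscle and pericyte markers 4 were lower and 1 higher, and 2 of the 4 cardiac markers were lower. The part of those cell types in the differences in CM was not tested.

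The 6 tumour lines did not give the same values in CD26- NFs. Summed over the 36 members other than Acta1, Tnnt2, Chrnb1 and Mef2c, the level was 105 CPM with 13-MCB-17, 47.2 with 10-SJK-221, 100 with 18-MCB-12, 72.5 with 13-MCB-44, 215 with 13-MCB-90 and 56.1 with 13-MCB-138, against 16.4 to 22.3 CPM in the CD26- controls. For this sum the highest was 4.55 times the lowest, and each line stood above all 3 controls. It leaves out 4 members that were set apart after their values were seen, and the result depends on that. Over all 40 members, where Acta1 carries the most counts, the sums were 118 CPM with 10-SJK-221 and 134 with 13-MCB-138, within the 95.8 to 137 CPM of the CD26- controls, and 171 to 306 with the other 4 lines, above them. On CD26+ NFs the same CM gave 11.3 to 12.6 CPM over the 36 members, within the 10.4 to 13.7 CPM of the CD26+ controls. Each value is 1 library, so a line and its culture cannot be told apart.

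**Figure D5:**
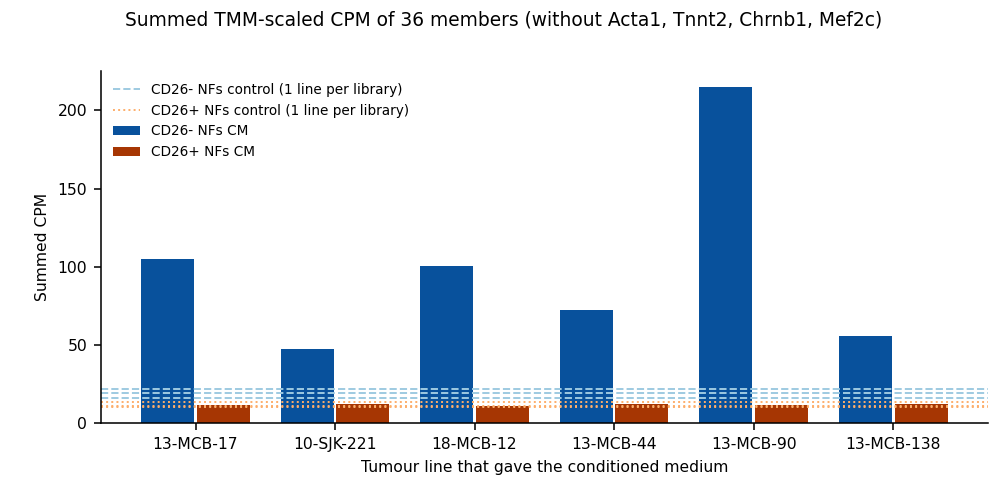
Summed CPM of 36 members (all but Acta1, Tnnt2, Chrnb1 and Mef2c) in the CM libraries by tumour line, with CD26- NFs in blue and CD26+ NFs in brown, 1 library per bar. Dashed and dotted horizontal lines are the 3 CD26- and the 3 CD26+ control libraries. The CD26- bars run from 47.2 to 215 CPM and all stand above the dashed lines, which over all 40 members holds for 4 of the 6 lines, and the CD26+ bars run from 11.3 to 12.6 CPM.

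Library 8 (13-MCB-90) was the highest of the CD26- CM libraries for 27 of the 34 members above the floor there, and library 5 (10-SJK-221) was the lowest for 19 and library 9 (13-MCB-138) for 10. Myog spanned 1.12 to 14.4 CPM between lines, a 12.9-fold range, Ttn 8.88-fold, Des 7.38-fold, Myh3 6.32-fold and Actc1 5.01-fold, beside 1.79-fold for Acta1 and 1.63-fold for Chrnb1. With the same line, CD26+ library 17 was highest for none of the 15 members above the floor in CD26+ CM. Library 8 did not stand at the edge of the 6 libraries for fibroblast markers (18963 CPM within 16705 to 32017) or epithelial markers (3807 within 2845 to 4592). Its smooth muscle markers summed to 1932 CPM within 1792 to 4072, and its endothelial markers, at 9.16 CPM, were the highest of the 6. Its immune markers, at 13.8 CPM, were the lowest, with 15.9 to 26.7 CPM in the other 5. The part of these cell types in the order of the lines was not tested.

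A model with terms for cell type and line over the 12 CM libraries tested the lines across both cell types. Of 20 members with enough counts, 6 passed, beside 6.56% of all 13344 genes tested: Myog (FDR 0.00328), Actc1 (0.00987), Des (0.0130), Ttn (0.0332), Myh3 (0.0366) and Chrna1 (0.0493). No member passed without library 8 and 10 passed without library 18. The CD26+ libraries held at most 6 counts of any of the 6 genes, so that the line term rests on the CD26- libraries, 1 for each line. Among the markers of other cell types, 5 of 12 for fibroblasts, 5 of 12 for smooth muscle and pericytes and 1 of 11 for epithelium passed in the same model. Nothing is read from the members' count, and the part of those cell types in it was not tested.

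Other skeletal muscle genes, 70 further genes of the pathway that were listed apart from the members, gave a mixed account. Of these 31 were tested, and in CD26- NFs 10 were higher with CM and 1 (Fbxo32, a ubiquitin ligase of muscle atrophy, -0.95 ± 0.19, FDR 0.00372) was lower, beside 7.88% and 7.28% of all tested genes, with a median log2 fold change of 0.44. Among the 10 were Eno3, Myom2, Myom3, Fgfr4, Klhl41, Mybph, Xirp1, Atp2a1 and Pygm, named after their values were seen. The log2 fold changes of the 10 ran from 1.23 for Eno3, the muscle enolase, to 4.34 for Myom3, a protein of the M-band. In CD26+ NFs Eno3 rose as well (1.35 ± 0.18, FDR 3.38e-05) and Fbxo32 also fell (-0.82 ± 0.20, FDR 0.00470), among 5 genes that were higher and 2 that were lower, beside 28.6% of all tested genes in either direction. The other lower gene was Pgam2 (-1.36 ± 0.30, FDR 0.00285), which did not pass in CD26- NFs (0.44 ± 0.35). It was the 1 gene of the 31 that passed in the interaction (-1.80 ± 0.46, FDR 0.0250), beside 7.53% of all tested genes. Of the 70 genes, 40 had a median above the floor in CD26- CM and 23 in CD26- controls. In CD26+ NFs 20 did so in controls and 21 in CM. Some may thus have passed the count filter only through CD26- CM libraries, which favours higher values there. How many did so was not tested. The list was also chosen with earlier results of these data known. Nothing is therefore read from its counts of passing genes, here or between the cell types.

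Between the cell types in control medium, 9 of these 31 were lower in CD26+ NFs and 3 were higher, beside the 25.4% and 25.0% of all tested genes. By smallest p, the lower ones were led by Itga7, an integrin of the muscle membrane (-1.57 ± 0.20, FDR 5.04e-06), Dmd, the dystrophin gene (-1.39 ± 0.18, FDR 7.92e-06), and Eno3 (-1.38 ± 0.20, FDR 1.77e-05). Among the higher ones were Pgam2, the muscle phosphoglycerate mutase (1.37 ± 0.36, FDR 0.00441) and Mef2d (0.19 ± 0.06, FDR 0.0104).

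Heart muscle shares several members with embryonic skeletal muscle, and 10 cardiac markers were read beside them. In CD26- NFs none of the 4 that were tested passed for the CM effect with edgeR, and none did at an unadjusted p under 0.05. They summed to 5.21 to 6.49 CPM in the CD26- controls and 4.24 to 7.88 CPM in CD26- CM. Nppa and Mybpc3 had 0 counts in all 6 CD26- CM libraries, Nkx2-5 at most 1 and Myh6 at most 4. Of the 12 fibroblast markers 4 were higher and 2 were lower with CM in CD26- NFs, beside the 7.88% and 7.28% of all tested genes. Of the 12 tested smooth muscle and pericyte markers none was higher and 3 were lower. In the same comparison 1 of 4 endothelial and 1 of 5 Schwann cell markers were higher, and none of the 11 epithelial, 4 adipocyte and 2 immune markers passed. The part of these cell types in the CM effect was not tested.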

How the data were processed

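The authors deposited raw counts per Ensembl gene for 18 libraries of stranded, single-end sequenced mRNA, made with HISAT2 2.1.0 and HTSeq on GRCm38 per the submitters' processing notes. The strand setting and annotation release are not given in the sources used here. The 55486 genes matched GENCODE M21 for 55226 IDs (99.4% with the same start and end), which gave exon lengths. The 1 row without a gene held 0 counts. Libraries of a group differed by more than counting error (lowest chi-square per degree of freedom 3.03).

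Genes were kept with filterByExpr (minimum count 10), scaled with TMM and fitted in R 4.3.3 by edgeR 4.0.16 (quasi-likelihood), the 4 groups sharing 1 model. A second fit used cell type and line over the CM libraries. CPM divide each count by its TMM-scaled library size. Standard errors given for edgeR are approximate: the size of the log2 fold change divided by the square root of the quasi-likelihood F statistic. Passing means an FDR under 0.05 over all genes of a fit, and the study's log2 limit of 2 is given beside it. The study's own test, DESeq2, was an alternative (1.42.0). The fits were tested on simulated data. Same-line libraries of the 2 cell types deviated together (r of 0.247 to 0.406 across genes for the 6 lines, as a description), so the line was taken as a pairing.

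The members and lists were chosen with earlier results of these data known. Values are given by library, or for groups of 6 as the lowest, median and highest, for the myogenic factors and fusion genes and for every member that passed in a comparison, and otherwise as ranges. Of the other skeletal muscle genes, the 3 of smallest p in each direction between cell types in control medium are named, except for an item that is not reported here. No batch is named in the labels. Alternatives were RLE and upper-quartile scaling, no count filter, a floor met in every library, the block by line, and leaving out each library. The floor of 3 counts was the same for every library, and depth sets only the CPM it corresponds to. Intervals (95%, exact) cover counting error only.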

Additional observations from a re-analysis of the deposited data

Results flagged for a closer look

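In CD26- CM, library 8 (13-MCB-90) stood apart from the other 5 libraries by Dixon's test at the 95% level for 6 members: Myog at 14.4 CPM, Myh3 at 34.6, Myl4 at 8.77, Neb at 12.6, Ttn at 11.3 and Casq2 at 5.74. In CD26+ CM, library 14 (10-SJK-221) stood apart as the lowest for Casq2, at 0 CPM. These are 7 of the 49 member and group pairs checked, where chance flags about 1 in 20 groups, and the members of a library are not independent. The CM effect differed between the cell types for Tnnt1 (difference in log2 fold change -3.93) and Tnnt3 (-3.63) with edgeR. Both genes passed the count filter only through the CD26- CM libraries, on which the list was chosen, so nothing is read from these 2 of 29 members, beside 7.53% of all tested genes.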

How the results depend on the processing

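Of 1640 repeats of 73 gene results, 1535 kept direction and side of the threshold, 81 lost and 19 gained the threshold and 5 changed sign without passing. The last were Tnni2 and Tnnt2 for the CM effect in CD26- NFs: with a library left out, Tnni2 ran from -0.56 to 0.072 and Tnnt2 from -0.17 to 0.13. The interaction gave 2 members, 1 with no count filter, 9 with DESeq2, 7 with the replicate block by line, and 0 to 4 with a library left out. The block left the comparison of cell types in CM at 27 members and was run on no other comparison. The line effect gave 6 members, 22 with no filter, and 0 (without library 8) to 10 (without library 18). For CD26+ against CD26- NFs in control medium DESeq2 gave 16 members in place of 9. The CM effect in CD26+ NFs gave 0, or 1 without library 16. For the CM effect in CD26- NFs leaving out a library gave 13 (without library 3) to 21. If every library had to exceed the floor, 10 members would count in CD26+ controls and 9 in CD26+ CM. The cause was not tested. Depth limits all CD26+ values near 0.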
